A study of Homo sapiens with 5 samples.

Results

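A set of 10 genes for neuronal RNA-binding proteins, called members here, was followed through the differentiation of human embryonic stem cells into neurons that make gonadotropin-releasing hormone (GnRH). They were identified by symbol, and all 10 of 10 were found among the 32732 genes that both gene annotations of the series list. They are the neuronal ELAVL proteins (ELAVL2, ELAVL3, ELAVL4), the NOVA proteins (NOVA1, NOVA2), the RBFOX proteins (RBFOX1, RBFOX2, RBFOX3) and the polypyrimidine tract-binding proteins PTBP1 and PTBP2. Each of the 8 libraries held at least 1 molecule of all 10.

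These proteins bind RNA and set which exons a transcript keeps, how stable it is and where it is translated. PTBP1 is made in most dividing cells, where it represses many neuronal exons. One of these exons lies in the transcript of its relative PTBP2, and skipping it leads that transcript to decay. When PTBP1 is lost, as microRNA-124 rises in young neurons, PTBP2 protein can accumulate, and PTBP2 then holds back a later set of exons until neurons mature. ELAVL proteins bind AU-rich and U-rich RNA and mark postmitotic neurons, NOVA proteins bind YCAY clusters, and RBFOX proteins bind UGCAUG. RBFOX3 is the antigen known as NeuN.

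The cells were the established line WA09, and each condition was 1 library with no replicate. D0 cells were undifferentiated. D5_dSMADi and D10_dSMADi cells had received dual SMAD inhibition, with dorsomorphin and SB431542, which turns stem cells into neural progenitors, and D5_XAV939 and D10_XAV939 cells had received the Wnt pathway inhibitor XAV939 at 10 µM in addition. D22, D24 and D26 cells came from the protocol without XAV939, in which FGF8 followed dual SMAD inhibition, cells were stored frozen once, and the Notch pathway inhibitor DAPT was given last. The first 5 sets of cells were tagged and pooled in 1 droplet run, and the last 3 were separate libraries prepared with another Cell Ranger version, another annotation and another way of detaching cells. Any difference between D10 and D22 or later therefore cannot be told apart from these changes.

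The 8 libraries kept 1009 to 11056 cells each, with a median of 7180 to 69455 unique molecular identifiers (UMIs) per cell and 58073098 to 130440502 UMIs in all. A level is a gene's UMIs per 1000000 UMIs of the library (CPM). The 95% intervals in parentheses are exact Poisson or binomial ones, which cover counting error only, so a gene whose UMIs sit in few cells is known less well than its interval says. A gene was called higher or lower only where its CPM differed by at least 2-fold and the pair of libraries held at least 50 UMIs of it. Without replicates no difference was tested. The UMIs were counted near the 3′ end of transcripts, 1 per molecule and with no scaling to length, so they give gene levels and not the exons used. In summed counts, fewer expressing cells and less RNA per cell cannot be told apart. Summed levels of 6 pluripotency markers went from 2370 CPM at D0 to 1.40 CPM at D26, and those of 7 neuron markers from 148 CPM at D5_dSMADi to 13185 CPM at D26, while 5 mesenchyme, 5 endoderm or mesoderm and 6 glia markers summed to at most 15.2, 1.59 and 12.4 CPM. Of the neuron markers, TUBB3 went the other way, from 183 CPM at D10_dSMADi to between 28.5 and 77.0 CPM in the later libraries, with the change of run in between. The 5 neural crest and Schwann cell markers summed to 307 CPM at D10_dSMADi and 111 CPM at D10_XAV939, and to 9.0 to 13.5 CPM from D22 on. No barcode was shared among the 5 tagged sets.

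The exon behind the link between PTBP1 and PTBP2 is shown first, because the ratio of these genes is the main result. It is exon 10 of PTBP2 (GRCh38, chr1:96806419-96806452, plus strand), and PTBP1 has a matching exon 11 (chr19:807869-807902, plus strand). Both are coding exons of 34 bases, and 34 leaves a remainder of 1 when divided by 3, so skipping shifts the reading frame. The windows below run from 100 bases before the exon to 40 bases after it (chr19:807769-807942 and chr1:96806319-96806492), with the exon in capitals.
PTBP1: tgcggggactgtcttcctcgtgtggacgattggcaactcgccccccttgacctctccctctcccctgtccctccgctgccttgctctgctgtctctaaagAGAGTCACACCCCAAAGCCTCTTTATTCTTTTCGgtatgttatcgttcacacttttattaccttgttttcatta
PTBP2: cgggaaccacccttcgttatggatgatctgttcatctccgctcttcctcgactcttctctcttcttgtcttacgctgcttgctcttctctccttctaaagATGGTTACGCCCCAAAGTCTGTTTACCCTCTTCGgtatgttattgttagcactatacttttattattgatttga

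The exons share 25 of their 34 bases (73.5%). In the 100 intronic bases before the exon, pyrimidines make up 69% for PTBP1 and 73% for PTBP2. The letters TCTT, a core of the sequence that PTB proteins bind, occur 6 times before the PTBP2 exon and 1 time before the PTBP1 exon. Of 152142 windows of the same length before internal coding exons, 62.9% held TCTT at least 1 time and 0.170% held it 6 or more times. CTCTCT, which can overlap TCTT, occurs 1 time before the PTBP2 exon and not before that of PTBP1, and 8.98% of windows held it. TGCATG, the RBFOX motif, is in neither window and in 2.91% of all. Only the strand that reads as the transcript was searched, and a match is a description of the letters and not a site in use. GENCODE release 44 lists 5 PTBP1 and 6 PTBP2 transcripts that skip the exon, of which 2 and 3 are annotated as targets of nonsense-mediated decay.

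PTBP1 was the more abundant of the pair through D10 and PTBP2 was from D22 on. PTBP1 lies at chr19:797075-812327 and PTBP2 at chr1:96721665-96823738, both on the plus strand. PTBP1 stood at 165 CPM at D0, 106 CPM at D5_dSMADi, 120 CPM at D5_XAV939, 125 CPM at D10_dSMADi, 140 CPM at D10_XAV939, 33.2 CPM at D22, 12.6 CPM at D24 and 13.8 CPM at D26. PTBP2 stood at 54.8, 64.0, 61.8, 64.3, 75.3, 141, 96.1 and 171 CPM in the same order. PTBP1 was thus above 100 CPM in all 5 tagged sets and below 34 CPM in the 3 later libraries, and PTBP2 had its lowest level at D0 and its highest at D26.

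As a share of PTBP1 and PTBP2 UMIs together, a measure that does not depend on the scaling between libraries, PTBP2 took 25.0% at D0 (24.3 to 25.6). The share was 37.7% at D5_dSMADi (36.9 to 38.5), 34.1% at D5_XAV939 (33.4 to 34.8), 33.9% at D10_dSMADi (33.1 to 34.6) and 35.0% at D10_XAV939 (34.1 to 35.8). It was 80.9% at D22 (80.4 to 81.4), 88.4% at D24 (87.7 to 89.1) and 92.5% at D26 (92.2 to 92.9). Put as a ratio, there were 3.00 PTBP1 UMIs per PTBP2 UMI at D0 and 12.4 PTBP2 UMIs per PTBP1 UMI at D26. The intervals of the 3 later libraries overlapped neither those of the tagged sets nor one another. From D10_dSMADi to D26 PTBP1 was 9.11-fold lower (8.61 to 9.64) and PTBP2 2.66-fold higher.

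**Figure D1:**
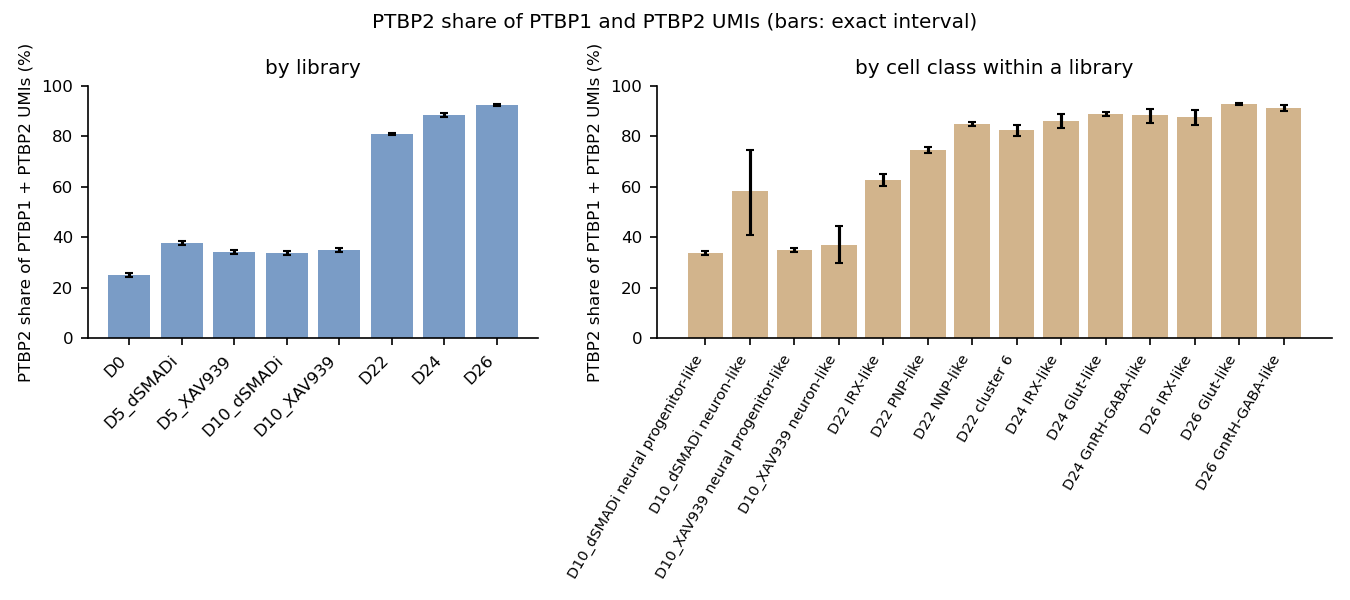
PTBP2 share of PTBP1 and PTBP2 UMIs in percent, by library (left) and by cell class within a library (right), with exact 95% intervals. The share lies between 25.0% and 37.7% in the 5 tagged sets and between 80.9% and 92.5% in the 3 later libraries, and at D22 it is lowest in IRX-like cells and highest in NNP-like cells among the named classes.

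Detection of a PTBP1 UMI did not exclude that of a PTBP2 UMI under the same barcode at this depth. After each cell was thinned to 3000 UMIs, 15.1% of the D0 cells with a PTBP1 UMI had a PTBP2 UMI (11.7 to 19.1), against 13.4% of those without (10.8 to 16.3). At D22 these shares were 31.5% (28.3 to 34.7) and 34.7% (33.7 to 35.8), and at D26 41.1% (36.2 to 46.1) and 40.4% (39.5 to 41.4). The intervals overlapped in all 8 libraries.

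The ratio also differed between clusters of 1 library. Cells were clustered without the members and without the other RNA-binding proteins described here, and clusters of the tagged sets and of the later libraries are numbered separately. In each of D5_dSMADi, D5_XAV939 and D10_dSMADi, the larger of the main clusters had the lower level of 7 cell cycle markers (HMGB2, MKI67, TOP2A, NUSAP1, UBE2C, CCNB1, CCNB2) and the higher PTBP2 share. At D10_dSMADi, the 1654 cells of cluster 2 had a PTBP2 share of 39.8% (38.8 to 40.8) and the 733 cells of cluster 7 one of 23.4% (22.3 to 24.6), with summed cell cycle markers of 1222 and 4583 CPM. At D5_dSMADi the shares were 44.6% in cluster 3 and 27.8% in cluster 6, and at D5_XAV939 39.8% in cluster 1 and 27.1% in cluster 4. The difference lay mainly in PTBP2, at 78.2 and 42.1 CPM in clusters 2 and 7 of D10_dSMADi, against 118 and 137 CPM for PTBP1. None of these PTBP differences reached 2-fold. Over the members, 0 were higher and 2 (ELAVL3, ELAVL4) lower in cluster 7 than in cluster 2 of D10_dSMADi, against 1.88% and 2.18% of genes, and 0 were higher or lower between the D5 clusters, where 3.04% and 1.53% of genes were for D5_dSMADi and 2.05% and 1.40% for D5_XAV939. At D10_dSMADi the median cell had 27945 UMIs in cluster 2 and 41307 in cluster 7, and the part of depth and of the cell cycle was not tested. D10_XAV939 formed 1 main cluster.

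At D22, where dividing progenitors and young neurons were in the same library, clusters with the study's markers were named PNP-like (proliferating neural progenitors), NNP-like (nonproliferating neural progenitors, with NEUROG1, NEUROD1 and NEUROD4), IRX-like, Glut-like (glutamatergic) and GnRH-GABA-like. The PTBP2 share was 62.7% in 630 IRX-like cells (60.2 to 65.2), 74.6% in 1424 PNP-like cells (73.4 to 75.8) and 85.0% in 3854 NNP-like cells (84.2 to 85.7). Summed cell cycle markers stood at 2420, 7657 and 193 CPM in these classes, so the IRX-like cells also held dividing cells. The PTBP2 share was 72.4% in 88 Glut-like cells (61.8 to 81.5) and 72.0% in 29 GnRH-GABA-like cells (50.6 to 87.9). The Glut-like cells of D22 came from 3 clusters that differed, with 46.9% (29.1 to 65.3) in 37 cells of cluster 12, whose leading genes included CCNO and CDKN1A, 81.8% (59.7 to 94.8) in 30 cells of cluster 1 and 90.9% (75.7 to 98.1) in 21 cells of cluster 0. Between PNP-like and NNP-like cells the difference lay mainly in PTBP1, at 50.1 and 26.9 CPM, while PTBP2 stood at 147 and 153 CPM. Between IRX-like and PNP-like cells it lay mainly in PTBP2, at 93.2 and 147 CPM, while PTBP1 stood at 55.4 and 50.1 CPM. The shares of these 5 classes were above those of both D10 libraries, with the change of run in between. An unnamed group led by EOMES (cluster 6, 985 cells) had a share of 82.4% from lower levels of both, with 16.7 CPM of PTBP1 and 78.4 CPM of PTBP2. At D24 the share was 88.8% in Glut-like, 88.5% in GnRH-GABA-like and 86.3% in IRX-like cells, and at D26 it was 92.9%, 91.4% and 87.7%. Among the IRX-like cells, cluster 8 had 89.0% at D24 and 90.2% at D26, and the 98 and 17 cells of cluster 7 had 79.3% and 51.5%. Glut-like cells were mostly cluster 1 at D24 and cluster 0 at D26, and IRX-like cells mostly cluster 7 at D22 and cluster 8 later, so values are compared within a library.

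All 3 ELAVL genes were higher at D22 than at D10_dSMADi, and ELAVL3 and ELAVL4 were at or below 12.98 CPM before. ELAVL3 (chr19:11451326-11481046, minus strand) stood at 0.553 CPM at D0, 0.904 CPM at D5_dSMADi, 1.13 CPM at D5_XAV939, 4.56 CPM at D10_dSMADi, 12.98 CPM at D10_XAV939, 269 CPM at D22, 305 CPM at D24 and 320 CPM at D26. ELAVL4 (chr1:50024029-50203772, plus strand) stood at 0.0790, 0.301, 0.196, 3.16, 6.34, 94.7, 235 and 226 CPM in the same order. ELAVL2 (chr9:23690104-23826337, minus strand) differed from both in being present from the start, at 23.9, 19.7, 24.9, 5.0, 23.3, 192, 145 and 101.3 CPM.

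ELAVL3 and ELAVL4 were thus lowest at D0, where their intervals overlapped those of the next library, and ELAVL2 was lowest at D10_dSMADi. ELAVL2 peaked at D22, whereas ELAVL4 had reached 41.9% of its D26 level by then and 104% by D24. Among ELAVL UMIs, ELAVL2 made up 97.4% at D0, 39.3% at D10_dSMADi, 34.5% at D22 and 15.6% at D26, ELAVL3 2.26%, 35.8%, 48.4% and 49.4%, and ELAVL4 0.323%, 24.9%, 17.1% and 34.9%. ELAVL2 was thus the main member in stem cells and ELAVL3 that of D26. After thinning to 1500 UMIs, 0 of 1009 D0 cells had an ELAVL3 UMI, which allows a share of up to 0.365% at that thinned depth, against 0.662% at D10_dSMADi, 1.61% at D10_XAV939, 31.2% at D22 and 36.7% at D26. Unthinned, these shares were 3.67%, 4.01%, 5.58%, 80.3% and 88.1%, at the median depths of 69455, 31112.5, 24290.5, 12179 and 8485 UMIs.

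**Figure D2:**
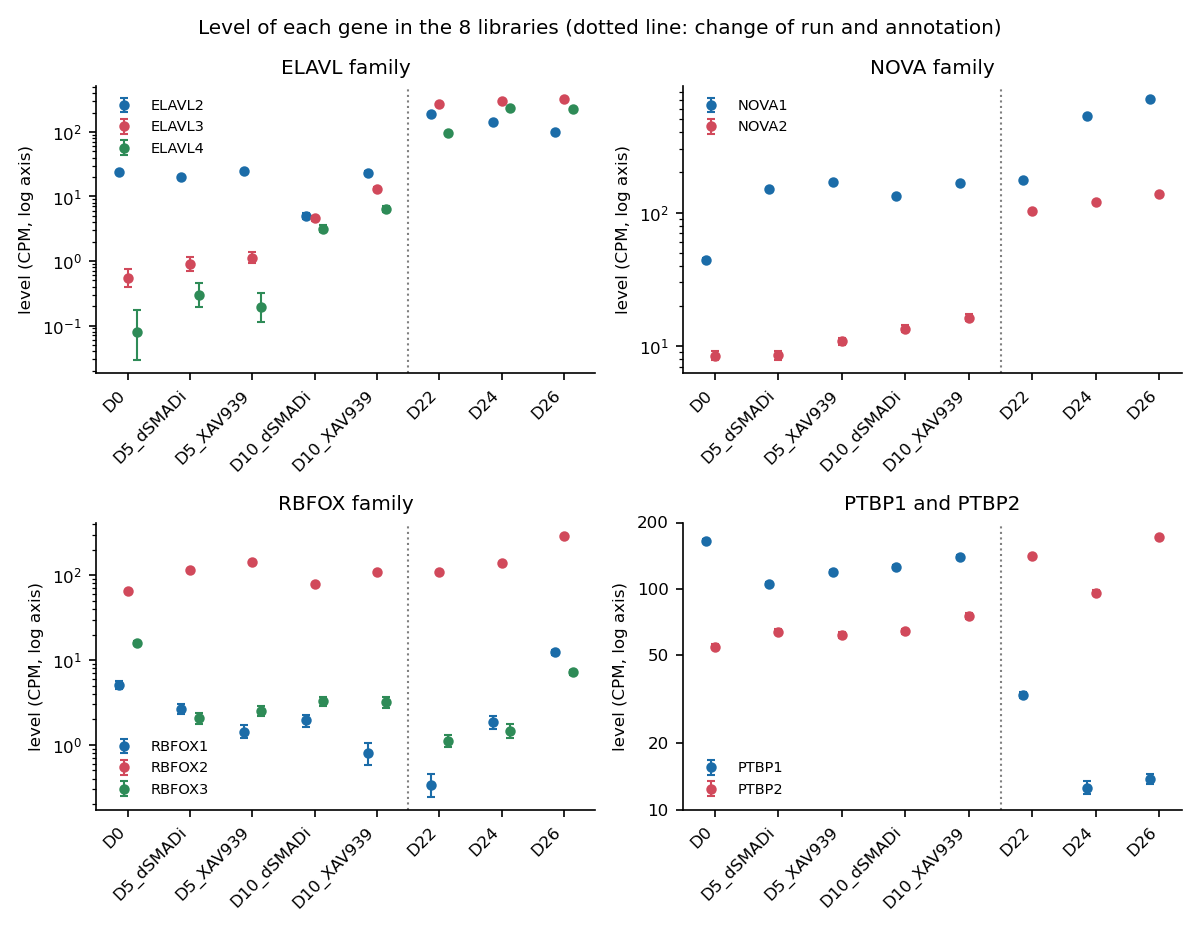
Level of each gene in CPM, on log axes, in the 8 libraries, with exact 95% Poisson intervals and a panel for each family. The 3 ELAVL genes and NOVA2 are highest right of the dotted line, PTBP1 is lowest there, and RBFOX1 has its lowest level at D22 and its highest at D26.

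NOVA1 (chr14:26443090-26598033, minus strand) was already abundant by D5. It stood at 43.9 CPM at D0, 149 CPM at D5_dSMADi, 169 CPM at D5_XAV939, 132 CPM at D10_dSMADi, 166 CPM at D10_XAV939, 177 CPM at D22, 532 CPM at D24 and 702 CPM at D26. NOVA2 (chr19:45933734-45974044, minus strand) stood at 8.51, 8.58, 10.9, 13.5, 16.4, 103, 120 and 138 CPM. The steps of the pair fell at different times, with NOVA1 3.40-fold higher at D5 than at D0 and 3.01-fold higher at D24 than at D22, and NOVA2 7.62-fold higher at D22 than at D10_dSMADi. Among NOVA UMIs, NOVA2 took 5.43% to 16.2% through D10, 36.8% at D22, 18.5% at D24 and 16.4% at D26.

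Of the RBFOX genes, RBFOX2 (chr22:35738736-36028824, minus strand) was expressed throughout, and the neuronal members RBFOX1 and RBFOX3 were low in all libraries, with their lowest level at D22. RBFOX2 stood at 64.7 CPM at D0, 114 CPM at D5_dSMADi, 142 CPM at D5_XAV939, 79.1 CPM at D10_dSMADi, 109 CPM at D10_XAV939, 109 CPM at D22, 140 CPM at D24 and 290 CPM at D26. RBFOX1 (chr16:5239802-7713340, plus strand) stood at 5.08, 2.64, 1.43, 1.94, 0.792, 0.337, 1.85 and 12.3 CPM, and RBFOX3 (chr17:79089345-79611051, minus strand) at 15.96, 2.06, 2.50, 3.26, 3.19, 1.11, 1.47 and 7.17 CPM. RBFOX3 was highest in the undifferentiated D0 cells, 7.76-fold above D5_dSMADi (6.59 to 9.19). In D0 its UMIs lay in 653 of 1009 cells, or 2.78% of cells after thinning to 1500 UMIs. At D26 RBFOX2 still made up 93.7% of the RBFOX UMIs. As a percentage of its D26 level, RBFOX1 stood at 41.3% at D0, 15.8% at D10_dSMADi, 2.74% at D22 and 15.1% at D24, and RBFOX3 at 223%, 45.5%, 15.5% and 20.5%. Both were thus lower at D22 than at D0 and D10_dSMADi before they were higher at D26.

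The other genes that were higher at D26 can be set side by side in the same way. At D10_dSMADi the percentage of the D26 level was 1.43% for ELAVL3, 1.40% for ELAVL4, 4.94% for ELAVL2, 9.77% for NOVA2, 18.8% for NOVA1, 27.3% for RBFOX2 and 37.6% for PTBP2. At D22 it was 189% for ELAVL2, 84.1% for ELAVL3, 82.3% for PTBP2 and 74.4% for NOVA2, but 41.9% for ELAVL4, 37.4% for RBFOX2 and 25.2% for NOVA1. ELAVL2, ELAVL3, PTBP2 and NOVA2 were thus near or above their last level at D22, although PTBP2 was lower at D24, at 56.2%. ELAVL4 and NOVA1 rose by D24, and all 3 RBFOX genes rose from D24 to D26, RBFOX2 only just. RBFOX1 was also 5.49-fold higher at D24 than at D22 (3.88 to 7.92), on 130 against 44 UMIs. From D24 to D26 the increase of RBFOX2 was 2.07-fold, which fell short of 2-fold with TMM scaling and with scaling without mitochondrial and ribosomal protein genes. That of RBFOX3 was 4.88-fold (3.97 to 6.06) and that of RBFOX1 6.64-fold (5.53 to 8.01). These ratios are over all cells. RBFOX1 lay mostly in GnRH-GABA-like cells, described below, whose part of all UMIs went from 6.61% at D24 to 17.7% at D26. Within this class RBFOX1 stood at 19.8 CPM at D24, where it was mostly cluster 9, and at 57.0 CPM at D26, where it was clusters 4 and 11. These values come from different clusters of separate libraries.

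Counted over the members, 9 were higher and 1 (PTBP1) was lower at D26 than at D10_dSMADi, where 25.2% of 16586 genes tested were higher and 27.8% lower. Scaled without mitochondrial and ribosomal protein genes, 8 were higher, since RBFOX3 fell short of 2-fold. The median log2 ratio of the members was 2.54 and that of all genes -0.07. For D22 over D10_dSMADi, 5 members were higher and 3 lower (PTBP1, RBFOX1, RBFOX3), against 17.0% and 25.4% of all genes, and where at least 10 CPM was asked of 1 library of the pair the count of lower members was 1. For D24 over D22, 3 were higher (ELAVL4, NOVA1, RBFOX1) and 1 lower (PTBP1), against 12.8% and 17.1%. For D26 over D24, 3 were higher (2 without RBFOX2 under those scalings) and 0 lower, against 9.91% and 4.88%. For D5_dSMADi over D0, 1 of 9 tested was higher (NOVA1) and 1 lower (RBFOX3), against 12.0% and 22.4%, and for D10_dSMADi over D5_dSMADi 2 of 10 were higher (ELAVL3, ELAVL4) and 1 lower (ELAVL2), against 10.2% and 2.86%. With at least 10 CPM in 1 of the pair, 0 were higher there, and with stricter limits on cells the log2 ratio of ELAVL3 was 1.65 in place of 2.33. D10_dSMADi is shared by 4 comparisons, the one with XAV939 at D10 included. The median of all genes lay between -0.26 and 0.31 on the log2 scale, and TMM scaling shifted log2 ratios by up to 0.25.

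At D10, a small group of cells held most of the ELAVL3 and ELAVL4 transcripts. It was named neuron-like from STMN2, DCX, INA, GAP43, SNAP25, TUBB3 and NHLH1, and counted 17 cells of D10_dSMADi (0.704% of cells and 0.446% of UMIs) and 59 cells of D10_XAV939 (2.72% and 2.41%). In D10_dSMADi these cells held 72.7% of the ELAVL3 UMIs, 53.0% of those of ELAVL4 and 16.2% of those of ELAVL2, and in D10_XAV939 85.9%, 90.8% and 27.9%. ELAVL3 stood at 742 CPM in the 17 cells (655 to 838) and 1.25 CPM in neural progenitor-like cells, and in D10_XAV939 at 464 CPM (429 to 501) and 1.87 CPM. ELAVL3 was among the leading genes of this cluster, although the clustering did not use it. TUBB3 stood at 5066 CPM in the 17 cells and 3785 CPM in the 59 cells, against 77.0 and 49.4 CPM over all cells of D24 and D26. This difference cannot be told apart from the change of run.

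ELAVL2 and the other families differed as well. In D10_dSMADi, neuron-like and neural progenitor-like cells had 182 and 4.21 CPM of ELAVL2, 122 and 13.0 CPM of NOVA2, 401 and 131 CPM of NOVA1, 228 and 78.5 CPM of RBFOX2, and 59.7 and 3.01 CPM of RBFOX3. In D10_XAV939 the levels were 270 and 17.2 CPM of ELAVL2, 81.6 and 14.8 CPM of NOVA2, 278 and 163 CPM of NOVA1, 173 and 108 CPM of RBFOX2, and 59.4 and 1.80 CPM of RBFOX3. RBFOX3 thus differed 19.8-fold and 33.0-fold, on 21 and 83 UMIs in the neuron-like cells. RBFOX1 had 1 UMI in the neuron-like cells of D10_dSMADi and 13 in those of D10_XAV939. In all, 7 of 10 members were higher and 1 (PTBP1) lower in the neuron-like cells of D10_dSMADi, where 33.4% of genes tested were higher and 13.5% lower. Genes with 0 UMIs in the 17 cells were entered at 3 UMIs, which can call rarely counted genes higher. The 33.4% can therefore overstate the share of genes that were higher, and the members cannot be judged against it. In D10_XAV939, 5 of 9 were higher and 0 lower, against 12.6% and 15.3%. PTBP1 stood at 42.7 CPM in neuron-like and 126 CPM in progenitor-like cells of D10_dSMADi, and at 82.3 and 141 CPM in D10_XAV939. PTBP2 was not called higher in these cells. It stood at 59.7 and 64.3 CPM in D10_dSMADi and at 48.0 and 76.0 CPM in D10_XAV939. The PTBP2 share was 58.3% (40.8 to 74.5) in the 17 cells, 36.8% (29.8 to 44.3) in the 59 cells, and 33.8% and 34.9% in the progenitor-like cells. With a separate clustering of D10_dSMADi, the progenitor-like cells had a share of 22.02%. Against the D26 library, ELAVL2, ELAVL3, RBFOX3 and PTBP1 were higher in the neuron-like cells of both sets, with intervals that did not reach the D26 level. NOVA1, RBFOX2 and PTBP2 were lower than in the D26 library in both sets, also with intervals apart from the D26 levels of 702, 290.1 and 171 CPM. ELAVL4 was above its D26 level of 226 CPM in D10_dSMADi, at 375 CPM (314 to 445), while in D10_XAV939 its interval (239 CPM, 214 to 266) held that level. Free RNA from neighbouring cells adds to all values of a droplet run, and its part was not tested.

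**Figure D3:**
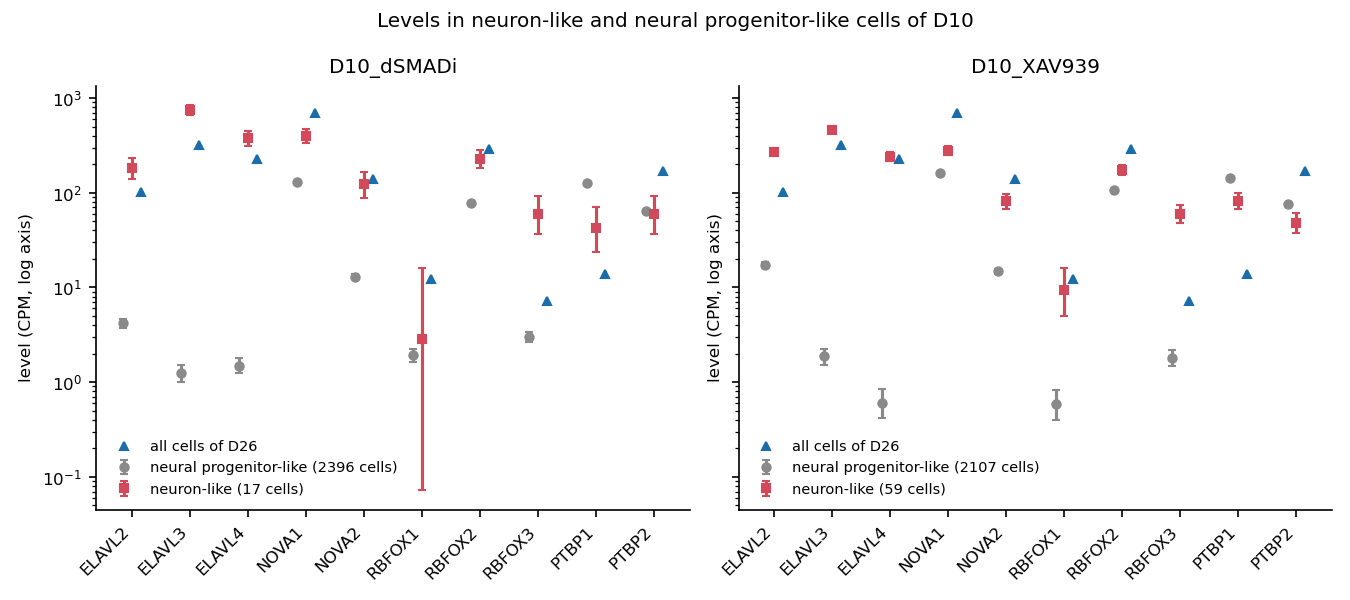
Level in CPM, on a log axis, in neuron-like cells (squares) and neural progenitor-like cells (circles) of both D10 libraries with exact 95% Poisson intervals, and in all cells of D26 (triangles). In both libraries ELAVL2, ELAVL3 and RBFOX3 of the neuron-like cells lie above D26, ELAVL4 does so in D10_dSMADi, NOVA1, RBFOX2 and PTBP2 lie below D26, and PTBP1 lies between progenitor-like cells and D26.

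At D10, ELAVL RNA was higher with XAV939 than without it. For ELAVL2 the D10_XAV939 level was close to those of D0, D5_dSMADi and D5_XAV939 (23.9, 19.7 and 24.9 CPM). D10_dSMADi was 3.94-fold below D5_dSMADi. ELAVL2 stood at 23.3 CPM in D10_XAV939 and 5.0 CPM in D10_dSMADi, a ratio of 4.66-fold (4.16 to 5.22), ELAVL3 at 12.98 and 4.56 CPM, 2.85-fold (2.51 to 3.24), and ELAVL4 at 6.34 and 3.16 CPM, 2.00-fold (1.70 to 2.36). RBFOX1 was 2.45-fold lower (1.75 to 3.49) on 46 against 153 UMIs, at under 10 CPM in both. In all, 3 of 10 members were higher and 1 lower, against 2.70% and 4.52% of all genes. ELAVL4 fell short of 2-fold, and the count of higher members was 2, with all barcodes, with each cell weighted equally or with scaling without mitochondrial and ribosomal protein genes. NOVA1, NOVA2, RBFOX2, RBFOX3, PTBP1 and PTBP2 stayed within 2-fold, with log2 ratios from -0.03 to 0.47. At D5, 0 of 9 members tested were higher and 0 lower, against 1.79% and 1.64% of genes, and the log2 ratio furthest from 0 was that of RBFOX1, at -0.88 (-1.21 to -0.55). The interval of the D5 ratio allowed at most 1.35-fold for ELAVL2 and 1.72-fold for ELAVL3.

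Without the neuron-like cells, ELAVL2 alone stayed higher with XAV939, at 17.2 against 4.21 CPM (4.09-fold, 3.61 to 4.65). ELAVL3 was then at 1.87 against 1.25 CPM, and ELAVL4 at 0.60 against 1.49 CPM, 2.49-fold lower on 34 against 117 UMIs. Over the members, 1 was higher and 2 (ELAVL4, RBFOX1) were lower in these cells, against 2.09% and 4.70% of genes. The ELAVL3 and ELAVL4 differences between the D10 libraries thus went with the 59 and 17 neuron-like cells, and that of ELAVL2 was present outside them as well. Outside the neuron-like cells, DCX also stood at 19.7 CPM with XAV939 and 3.34 CPM without it, STMN2 at 16.3 and 2.997 CPM, INA at 12.2 and 7.43 CPM and SNAP25 at 1.83 and 0.650 CPM, while TUBB3 (149 and 161 CPM), GAP43 (4.55 and 4.60 CPM) and NHLH1 (2.77 and 2.997 CPM) were close. Summed over the whole libraries, neuron markers stood at 540 CPM in D10_XAV939 and 337 CPM in D10_dSMADi, and neural crest and Schwann cell markers at 111 and 307 CPM, and their part was not tested.

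**Figure D4:**
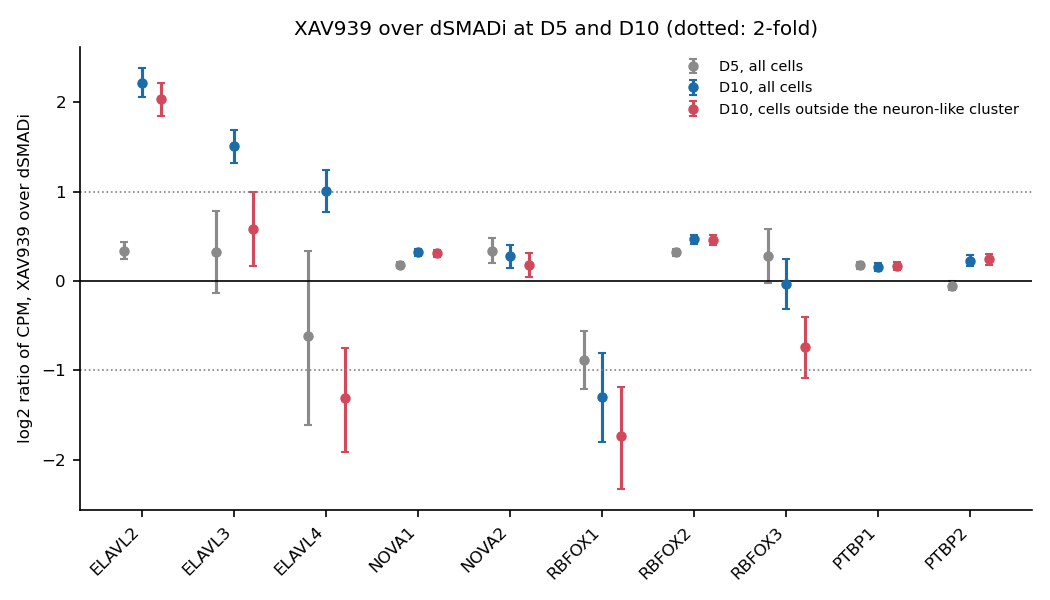
Log2 ratio of CPM, XAV939 over dSMADi, at D5, at D10 and at D10 outside the neuron-like cluster, with 95% intervals. ELAVL2 lies near 2 at D10 in both sets of cells, while ELAVL4 moves from 1.00 to -1.31 when the neuron-like cells are left out.

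At D22 the ELAVL genes, NOVA2 and RBFOX3 were higher in nonproliferating than in dividing progenitors. Between PNP-like and NNP-like cells ELAVL4 differed most, at 18.3 and 132 CPM (7.18-fold, 6.55 to 7.89), followed by RBFOX3 at 0.334 and 1.53 CPM on 9 and 75 UMIs, ELAVL2 at 103 and 265 CPM, ELAVL3 at 167 and 393 CPM, and NOVA2 at 58.7 and 138 CPM. These 5 of 9 members tested were higher and 0 lower in NNP-like cells, against 7.77% and 10.1% of genes, and NOVA1, RBFOX2, PTBP1 and PTBP2 stayed within 2-fold. The EOMES-led cluster 6 had more ELAVL4 again, at 344 CPM, and similar ELAVL2 and ELAVL3, at 286 and 434 CPM, and over NNP-like cells 2 of 9 members (ELAVL4, RBFOX3) were higher and 0 lower, against 11.8% and 8.81%. IRX-like cells of D22 had 71.9 CPM of ELAVL3, the 1 of 8 members that was lower than in PNP-like cells, where 7.02% of genes were lower. No member was higher there, against 6.43% of genes.

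RBFOX1 was the 1 member called higher in GnRH-GABA-like than in Glut-like cells at both days. This class had GNRH1, DLX5, GAD2 and other fixed markers, and held 536 cells at D24, mostly of cluster 9, and 1703 cells at D26, of clusters 4 and 11. At D24 RBFOX1 stood at 19.8 CPM there and at 0.363 CPM in 7936 Glut-like cells, a ratio of 54.6-fold (34.01 to 91.4) on 92 and 22 UMIs. At D26 it stood at 56.98 CPM there and at 1.51 CPM in 8671 Glut-like cells, a ratio of 37.7-fold (31.1 to 46.1) on 1005 and 116 UMIs. GnRH-GABA-like cells, with 6.61% of the UMIs of D24 and 17.7% of those of D26, held 70.8% (62.2 to 78.4) and 82.2% (79.9 to 84.3) of the RBFOX1 UMIs. Unthinned, 37.6% of them had an RBFOX1 UMI at D26, against 1.19% of Glut-like cells, at median depths that differed by less than 2-fold. Within the class at D26 RBFOX1 stood at 64.9 CPM in cluster 4 and 37.0 CPM in cluster 11, whose median cell had 8977.5 and 17464 UMIs. Outside it, IRX-like cells of D26 had 18.0 CPM and an unnamed cluster 13 of 146 cells 33.3 CPM. At D22 this class held 29 cells.

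The relative RBFOX3 did not share this pattern, with 9.07 CPM in the GnRH-GABA-like class of D26 and 6.52 CPM in the Glut-like class. RBFOX2 stood at 281 and 294 CPM in these classes. ELAVL4 was lower in GnRH-GABA-like than in Glut-like cells at D24, at 99.4 against 245 CPM (log2 ratio -1.30), and within 2-fold at D26, at 133 against 247 CPM (-0.89). The D26 value pools 118 CPM in cluster 4 with 174 CPM in cluster 11. Cluster 4 alone was more than 2-fold below Glut-like cells. ELAVL2 was also lower at D24, at 72.0 against 148 CPM, but not at D26, at 100.8 against 95.4 CPM. Over the members, 1 of 10 was higher and 2 lower at D24, against 3.01% and 9.60% of genes, and 1 was higher and 0 lower at D26, against 3.25% and 5.63%. ELAVL2 was higher in IRX-like than in Glut-like cells of D26, at 236 CPM, where with RBFOX1 2 of 10 members were higher and 0 lower, against 6.75% and 9.08%. ELAVL3, NOVA1 and NOVA2 stayed within 2-fold in all 3 of these comparisons.

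**Figure D5:**
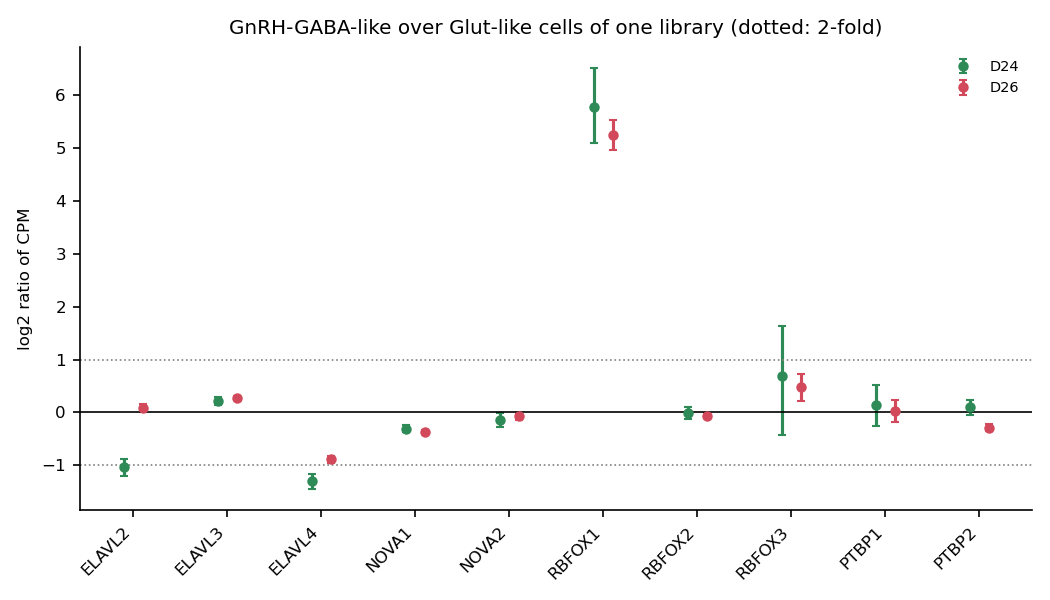
Log2 ratio of CPM, GnRH-GABA-like over Glut-like cells of the same library, at D24 and D26, with 95% intervals. RBFOX1 lies at 5.77 and 5.24, and the other 9 genes lie between -1.30 and 0.69.

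Other RNA-binding proteins were taken from 5 further lists. Of 11 other neuronal RNA-binding proteins, 8 were higher and 1 lower at D26 than at D10_dSMADi, against 25.2% and 27.8% of all genes. CELF4, a translation and splicing regulator, went from 2.75 to 373 CPM, SRRM3 from 0.838 to 63.6 CPM and CELF3 from 3.77 to 140 CPM. SRRM4, which activates neuronal microexons, went from 1.14 CPM at D10_dSMADi to 223 CPM at D22, and stood at 87.6 CPM at D24 and 73.8 CPM at D26. SRRM4 thus had its highest level at D22, like ELAVL2. The median log2 ratio of this list was 4.02, against -0.07 over all genes. At D10, 2 of the 10 that were tested were higher with XAV939 and 0 lower, against 2.70% and 4.52% of all genes.

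Of 30 broadly expressed splicing factors, 0 were higher and 11 lower at D26 than at D10_dSMADi, against the same 25.2% and 27.8%. The median log2 ratio of the 30 was -0.66. The lower ones included SRSF2 (288 to 76.8 CPM), HNRNPM (552 to 173 CPM), SRSF3 (687 to 262 CPM) and SRSF7 (487 to 198 CPM). Between D22 and D24, 8 of them were lower and 0 higher, against 17.1% and 12.8% of all genes. The non-neuronal relatives of the members, named for that reason and with values seen, were ELAVL1, at 166 and 69.6 CPM at D10_dSMADi and D26, and PTBP3, at 54.5 and 56.7 CPM. Of 8 stem cell or epithelial RNA-binding proteins, 5 were lower at D5_dSMADi than at D0, against 22.4% of all genes, with the epithelial splicing factor ESRP1 at 2.47 against 63.0 CPM, and 5 of the 7 tested were lower at D26 than at D10_dSMADi, with LIN28A at 3.80 against 375 CPM. Of 8 progenitor RNA-binding proteins 5 were lower at D26, with the mRNA decay factors ZFP36L1 at 0.583 against 353 CPM and ZFP36L2 at 0.523 against 121 CPM. REST, the repressor of neuronal genes, stood at 117 CPM at D10_dSMADi, 31.8 CPM at D22 and 1.15 CPM at D26. Of the 4 genes listed for its complex, REST among them, 2 (REST, RCOR1) were lower at D26 than at D10_dSMADi, against 27.8% of all genes.

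Over the 8 libraries, the genes whose log2 level followed PTBP1 most closely among 4882 were SKP2 (Pearson r = 0.998), EPB41L2 (0.997) and GINS1 (0.997). For PTBP2 they were METTL9 (0.993), CUX1 (0.984) and TAX1BP1 (0.979), and for ELAVL4 they included CELF3 (0.999) and ATL1 (0.997). These are descriptions over 8 points that share the change of run after D10. ELAVL3 shares exon sequence with an unnamed gene that had 0 UMIs in the later libraries and is not listed for the tagged sets.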

How the data were processed

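The authors aligned reads to GRCh38 and deposited whole-number UMI counts per gene and barcode, with no normalization. File headers name Cell Ranger 6.1.2 for the 5 tagged sets (36601 genes) and 3.1.0 for D22, D24 and D26 (33538 genes), whereas the labels name 3.1. Cells were kept by the study's limits, except the complexity limit of 0.85 for D0, which leaves 1 cell. Doublets (2.07% to 6.77%) were scored against simulated ones and stayed in. Cells were log-normalized to 10000 UMIs and clustered from 2000 variable genes and 30 components with leidenalg 0.10.2 (resolution 0.3 for the tagged sets, 0.5 later). Clusters took names from fixed markers. Counts were summed per library or class. Intervals came from scipy 1.17.1 and TMM factors from edgeR 4.0.16. Fold ratios with their intervals were checked on simulated counts first. Exon windows came from GENCODE release 44, internal coding exons with an upstream intron of at least 150 bases.

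All 10 members are named. Of each other list up to 4 genes are named, those with the largest ratio among genes of at least 50 CPM in 1 library of the pair, and for PTBP1, PTBP2 and ELAVL4 the 3 genes with the most similar level, of which 1 is not reported here. The members, lists and comparisons were chosen with earlier results of these data known. Alternatives tried were other cell filters, doublet removal, other scalings, equal weight per cell, other count limits, other clusterings and deeper thinning.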

Additional observations from a re-analysis of the deposited data

How the results depend on the processing

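No paired analysis was possible because each condition was 1 library, and for the same reason no library could be left out. Across the alternatives, 25 of the PTBP2 shares by library moved by less than their interval and 7 by more, as did 31 and 5 of those by class. Of the counts of members past 2-fold, 140 stayed within 1.5 times and 6 did not, and of the log2 ratios of single members 630 stayed within their interval, 99 moved beyond it and 1 reversed. With each cell weighted equally, the PTBP2 share was 39.0% at D5_dSMADi, 35.2% at D5_XAV939, 35.0% at D10_dSMADi, 35.9% at D10_XAV939 and 81.8% at D22. With all barcodes it was 33.1% at D10_dSMADi, and with stricter limits on cells 33.7% at D10_XAV939. By class, PNP-like cells of D22 had 75.9% with all barcodes and 75.8% without doublets. Progenitor-like cells of D10_dSMADi had 33.0% with all barcodes, and 22.02% where each library was clustered on its own, which gave D10_XAV939 30.5%.

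With no filter on low counts, 2 members were higher at D5_dSMADi than at D0. With at least 10 CPM, 0 were higher at D10_dSMADi than at D5_dSMADi, 0 lower with XAV939 at D10 and 1 lower at D22 than at D10_dSMADi. Leaving out the neuron-like cells of D10, chosen after seeing the data, gave 1 higher and 2 lower with XAV939 and turned the log2 ratio of ELAVL4 from 1.00 to -1.31. Stricter limits on cells moved the fold of ELAVL3 by over 1.5 times, with log2 ratios going from 2.33 to 1.65 for D10_dSMADi over D5_dSMADi, from 5.88 to 6.55 for D22 over D10_dSMADi and from 6.13 to 6.80 for D26 over D10_dSMADi, and the cause was not tested. D0 was kept without the complexity limit, also chosen after seeing the data.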
